A study of Danio rerio with 4 samples.

Results

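The Meis and Pbx genes encode homeodomain proteins of the TALE class, so called for an extra loop within the DNA-binding domain. They were followed here in cells sorted from zebrafish embryos by a reporter of nkx2.5, a transcription factor gene of the heart and pharyngeal mesoderm. The set had 10 genes, given as a list of symbols: meis1a, meis1b, meis2a, meis2b, meis3, pbx1a, pbx1b, pbx2, pbx3b and pbx4. Each was matched to 1 of the 25873 Ensembl IDs in the deposited table, and all 10 passed the filter on low counts. For 7 genes the symbol itself was found. The gene meis1b was matched through its synonym meis1 to the ID named MEIS1. The genes meis2a and pbx3b were matched to the IDs named MEIS2 and PBX3, which remained once meis2b and pbx3a had IDs of their own, so these 2 matches rest on the names. The RefSeq table lists meis2 as a synonym of meis2b, so the name MEIS2 alone does not settle which Meis2 gene that ID is, and the values given for meis2a are those of the ID named MEIS2.

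Pbx proteins bind DNA together with Hox proteins and raise the selectivity of their binding. Meis proteins bind Pbx, promote its entry into the nucleus and join the same complexes. In zebrafish, pbx4 (lazarus) is needed for hindbrain segmentation, and Pbx proteins act with Hand2 in heart muscle differentiation and with Myod in fast muscle.

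Both groups came from embryos carrying the transgene Tg(nkx2.5:ZsYellow), in a strain described as laboratory strain, at 14 to 16 somites. The ZsYellow-positive fraction, described as cardiopharyngeal progenitors and cardiomyocytes, was compared with ZsYellow-negative cells collected in parallel from those embryos, with 2 libraries each. The reporter marks cells by nkx2.5 regulatory sequence, so the positive fraction is a mixture of heart, pharyngeal and related cells, and the negative fraction is a mixture of the remaining cell types. The labels give neither the number of embryos nor whether replicates came from separate sorts, so p-values measure the spread between these libraries, which may be technical.

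Library totals ran from 31996733 to 40133331 counts. Of 8 tested cardiac marker IDs, 7 were called higher in positive cells and 1, the least abundant MYH6 ID, lower. The summed level over all 9 IDs was 3341 and 3685 CPM, counts scaled to a library of 1000000, in the positive libraries. In the negative libraries it was 141.4 and 142.6 CPM. NKX2-5, the gene of the reporter, was among the 7, and its call was set by the sort. It gave 425.6 and 513.5 CPM of the positive sums. All 6 somite and presomitic markers and all 5 neural marker IDs were lower. The 2 positive libraries differed from each other more than the 2 negative ones did, with an SD of the log2 ratio between replicates of 0.602 and 0.499 over the 19084 genes tested.

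Meis transcripts were more abundant in ZsYellow-positive cells, and pbx4, the main Pbx transcript, did not differ between the fractions beyond the spread of its replicates. By the quasi-likelihood test of edgeR with an adjusted p under 0.05, 4 of the 5 Meis genes (meis1a, meis2a, meis2b and meis3) were called higher, and 1 of the 5 Pbx genes, pbx3b, was called higher. Of all genes tested, 9.02% were called higher and 8.07% lower. No member was called lower: 0 had an unadjusted p under 0.05 in that direction, and DESeq2 and limma on log2(TPM + 1) also called 0 lower. The median log2 fold change, positive over negative, was 1.095 over the Meis genes and 0.50 over the Pbx genes, beside -0.01 over all genes tested. In CPM, the lower positive library exceeded the higher negative one for 5 of the 5 Meis genes and 2 of the 5 Pbx genes, as it did for 27.9% of all genes tested. The opposite separation, found for 30.3% of all genes tested, was found for 0 members. In bulk libraries such as these, more cells expressing a gene and more RNA per cell cannot be told apart.

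**Figure D1:**
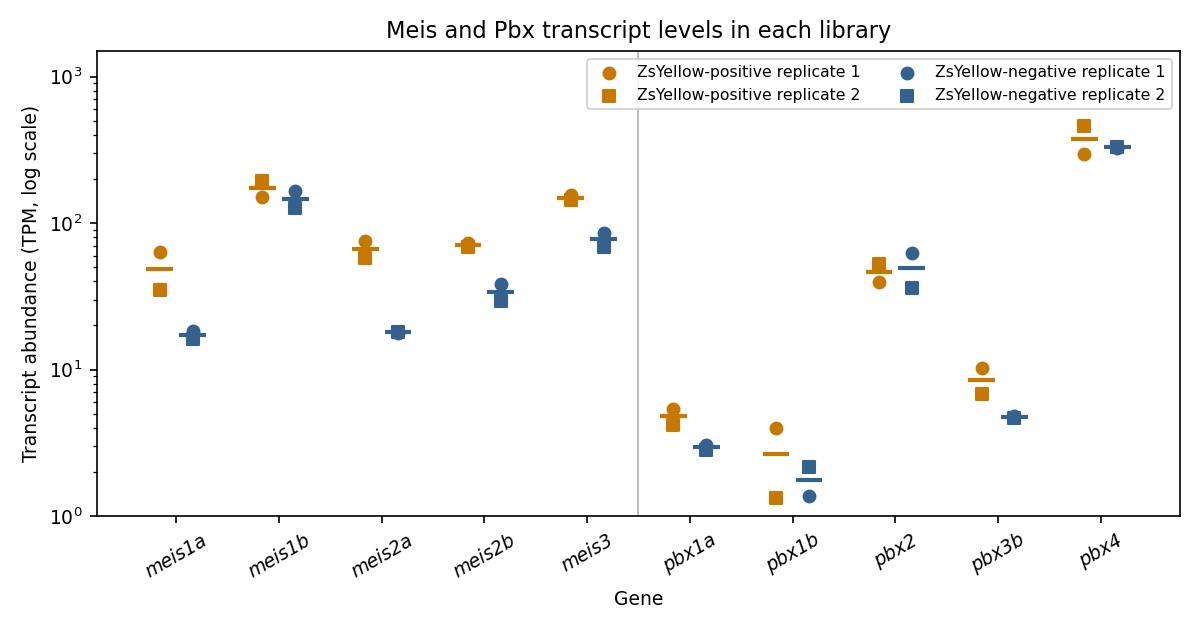
Transcript abundance of the 10 genes as TPM, transcript abundance scaled to 1000000 per library (log axis), with ZsYellow-positive libraries left of ZsYellow-negative libraries for each gene. Points are libraries and bars are group means. The points of meis1a, meis2a, meis2b, meis3, pbx1a and pbx3b are separated by fraction, and those of meis1b, pbx1b, pbx2 and pbx4 overlap.

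Levels are given below as TPM, which allows genes of different length to be compared, and differences between the fractions as log2 fold changes fitted to the counts. The Meis1 and Meis2 pairs are duplicates of single mammalian genes. Reads that match more than one copy may have been divided between them in the authors' quantification, so the values of each copy are uncertain where their sequences are alike.

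The largest difference in the set was that of meis2a, whose human counterpart MEIS2 is known for variants that cause cleft palate and heart defects. The ID had 75.3 and 57.4 TPM in the positive libraries, against 17.7 and 18.2 TPM in the negative libraries. The groups were far apart: the lower positive library had over 3 times the level of either negative one. On counts the log2 fold change was 1.93 (SE 0.214, 95% interval 1.44 to 2.42, edgeR adjusted p 0.000407). It was the only member whose adjusted p stayed under 0.01 in each fit tried.

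Its duplicate meis2b, which in zebrafish is known for a role in the identity of the atrium, had 73.5 and 68.9 TPM in the positive libraries and 38.2 and 29.3 TPM in the negative libraries. The 2 positive values were within a few TPM of each other and above both negative values. Fitted to counts, meis2b differed by a log2 fold change of 1.095 (SE 0.182, 95% interval 0.68 to 1.51, edgeR adjusted p 0.00345). The 2 duplicates thus stood at almost the same level in positive cells, while in negative cells meis2b was the more abundant. The ratio of meis2a to meis2b TPM was 1.02 and 0.833 in the positive libraries, against 0.465 and 0.620 in the negative libraries. These ratios did not overlap, and the exact permutation test (two-sided, 2 against 2) gave a p of 0.333, the smallest that this design allows.

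The gene meis1a had 63.3 and 34.7 TPM in the positive libraries, against 18.5 and 16.2 TPM in the negative libraries. Both positive libraries were higher, but in TPM they lay farther from each other than the lower of them lay from the negative libraries. The log2 ratio of positive replicate 1 to replicate 2 was 1.17 in CPM, and 6.02% of the genes tested had a wider one. For meis1a the log2 fold change was 1.67 (SE 0.332, 95% interval 0.91 to 2.42, edgeR adjusted p 0.00867). Leaving out positive replicate 1 gave 0.99, and leaving out positive replicate 2 gave 2.14. It was not called without negative replicate 1 (1.71, adjusted p 0.0687) or without negative replicate 2 (1.63, adjusted p 0.0853). The heart factors described below did not move together between the positive libraries: of 12 IDs, 8 were higher in replicate 1 and 4 in replicate 2, with log2 ratios of replicate 1 to replicate 2 from -0.724 to 1.40. The endothelial markers described below were all higher in positive replicate 2, with log2 ratios of replicate 1 to replicate 2 from -0.673 (kdrl) to -0.188 (etsrp). Whether differences between the positive libraries had a part in the meis1a values was not tested.

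The other Meis1 gene, meis1b, was the most abundant Meis gene in both fractions. It had 150.1 and 195.2 TPM in positive cells and 165.3 and 125.8 TPM in negative cells. These values overlapped, although the CPM values did not, at 315.6 and 378.2 CPM in positive against 304.8 and 263.4 CPM in negative libraries. The gene was not called in any fit, with a log2 fold change of 0.29 (SE 0.185, 95% interval -0.13 to 0.71, edgeR adjusted p 0.343). The ratio of meis1a to meis1b TPM was 0.421 and 0.178 in the positive libraries, against 0.112 and 0.129 in the negative libraries. The ratio was thus higher in both positive libraries, most of all in replicate 1 (exact permutation p 0.333, the smallest possible).

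In zebrafish, meis3 is known for hindbrain patterning together with Pbx4 and Hoxb1b. It had 154.3 and 143.5 TPM in the positive libraries and 86.2 and 68.3 TPM in the negative libraries. The fractions did not overlap. The log2 fold change of meis3 was 0.97 (SE 0.179, 95% interval 0.57 to 1.38, edgeR adjusted p 0.00582), and it was not called without negative replicate 2 (0.91, adjusted p 0.0684). In positive cells the ranges of meis3 and meis1b overlapped, and in negative cells meis1b was the higher. The ratio of meis1b to meis3 TPM was 0.973 and 1.36 in the positive libraries, against 1.92 and 1.84 in the negative libraries (exact permutation p 0.333, the smallest possible).

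**Figure D2:**
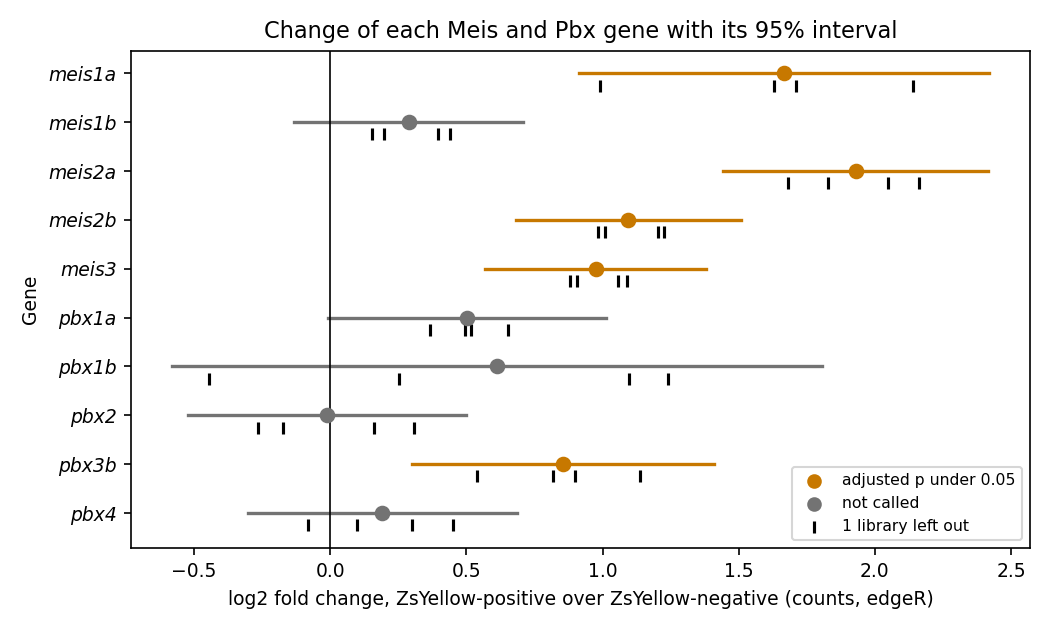
Log2 fold change of each gene, ZsYellow-positive over ZsYellow-negative, from the edgeR fit to counts, with its 95% interval as a line; ticks below each line are the values with 1 library left out. The interval of meis1b lies across 0, unlike those of the other Meis genes, and the ticks of pbx1b, pbx2 and pbx4 lie on both sides of 0.

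Among the Pbx genes, pbx4 dominated. It was the most abundant member in both fractions, at 294.4 and 456.2 TPM in the positive libraries and 327.9 and 332.2 TPM in the negative libraries. The negative libraries lay between the 2 positive ones. For pbx4 the log2 fold change was 0.19 (SE 0.218, 95% interval -0.30 to 0.69, edgeR adjusted p 0.618). Leaving out positive replicate 2 gave -0.08 and leaving out positive replicate 1 gave 0.45, neither of them called. With 33550 to 60166 counts a library, the spread between replicates and not counting error sets this interval.

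The gene pbx2, which in zebrafish shares early functions with pbx4, had 39.7 and 52.7 TPM in the positive libraries, against 62.7 and 36.2 TPM in the negative libraries. The positive values lay inside the range of the negative ones. On counts its change was -0.01 on the log2 scale (SE 0.225, 95% interval -0.52 to 0.50, edgeR adjusted p 0.977), and its sign depended on the scaling. The ratio of pbx2 to pbx4 TPM was 0.135 and 0.116 in the positive libraries against 0.191 and 0.109 in the negative libraries, with overlap.

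The one Pbx gene called was pbx3b, whose mammalian counterpart Pbx3 is known as a partner of Meis1 and Hoxa9 in leukaemia. Its level was low, at 10.2 and 6.83 TPM in the positive libraries against 4.85 and 4.64 TPM in the negative libraries. Both positive libraries were higher. For pbx3b the log2 fold change was 0.86 (SE 0.244, 95% interval 0.30 to 1.41, edgeR adjusted p 0.0425), close to the threshold. It was not called with upper-quartile factors (0.76, adjusted p 0.0645), with limma on log2(TPM + 1) (0.71, adjusted p 0.13) or on log2(TPM + 0.1) (0.80, adjusted p 0.11). Nor was it called without positive replicate 1 (0.54, adjusted p 0.155), without negative replicate 1 (0.82, adjusted p 0.204) or without negative replicate 2 (0.90, adjusted p 0.175). The related gene pbx3a, which was not among the 10, had 6 and 11 counts in positive cells against 5 and 7 in negative cells, too few to compare.

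The least abundant members were pbx1a and pbx1b. The gene pbx1a had 5.41 and 4.22 TPM in the positive libraries and 3.08 and 2.82 TPM in the negative libraries. These values did not overlap, but the log2 fold change of 0.50 (SE 0.225, 95% interval -0.01 to 1.01, edgeR adjusted p 0.173) was not called. On TPM the log2 ratio of the group means was larger, 0.71, because the count per TPM of pbx1a was lower in positive cells. Relative to the median gene of its library, that quantity, which follows the transcript length by which TPM is scaled, was 1.341 and 1.503 in the positive libraries against 1.679 and 1.651 in the negative libraries. Its log2 difference between the fractions was -0.23, and 2.07% of 11666 genes with at least 100 counts in every library had a larger one in size. Which transcripts of pbx1a were assigned reads is not shown by the table.

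The gene pbx1b had 190 and 73 counts in positive cells against 67 and 112 in negative cells, or 3.99 and 1.33 TPM against 1.37 and 2.16 TPM. Positive replicate 1 stood above the other 3 libraries, and positive replicate 2 was the lowest of the 4 on both TPM and CPM. The log2 ratio of positive replicate 1 to replicate 2 was 1.69 in CPM, and 2.32% of genes tested had a wider one. The log2 fold change of 0.61 (SE 0.526, 95% interval -0.58 to 1.81, edgeR adjusted p 0.491) was not called. It became -0.44, not called, without positive replicate 1, and 1.24, called with an adjusted p of 0.00357, without positive replicate 2. No direction can therefore be given for pbx1b at this replication.

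In order of mean TPM, positive cells held pbx4, meis1b, meis3, meis2b, meis2a, meis1a, pbx2, pbx3b, pbx1a and pbx1b. The ranges over replicates of meis1b and meis3 overlapped, as did each neighbouring pair from meis2b to pbx2. In negative cells the order was pbx4, meis1b, meis3, pbx2, meis2b, meis2a, meis1a, pbx3b, pbx1a and pbx1b. There the neighbours with overlapping ranges were pbx2 with meis2b and meis2a with meis1a. The orders differed in the place of pbx2, which stood above meis2b, meis2a and meis1a in negative cells and below every Meis gene in positive cells. Mean levels ran from 375.3 TPM for pbx4 to 2.66 TPM for pbx1b in positive cells, and from 330.1 TPM to 1.77 TPM in negative cells. In positive cells pbx4 exceeded 98.5% of the IDs in the table and pbx1b exceeded 53.9%.

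**Figure D3:**
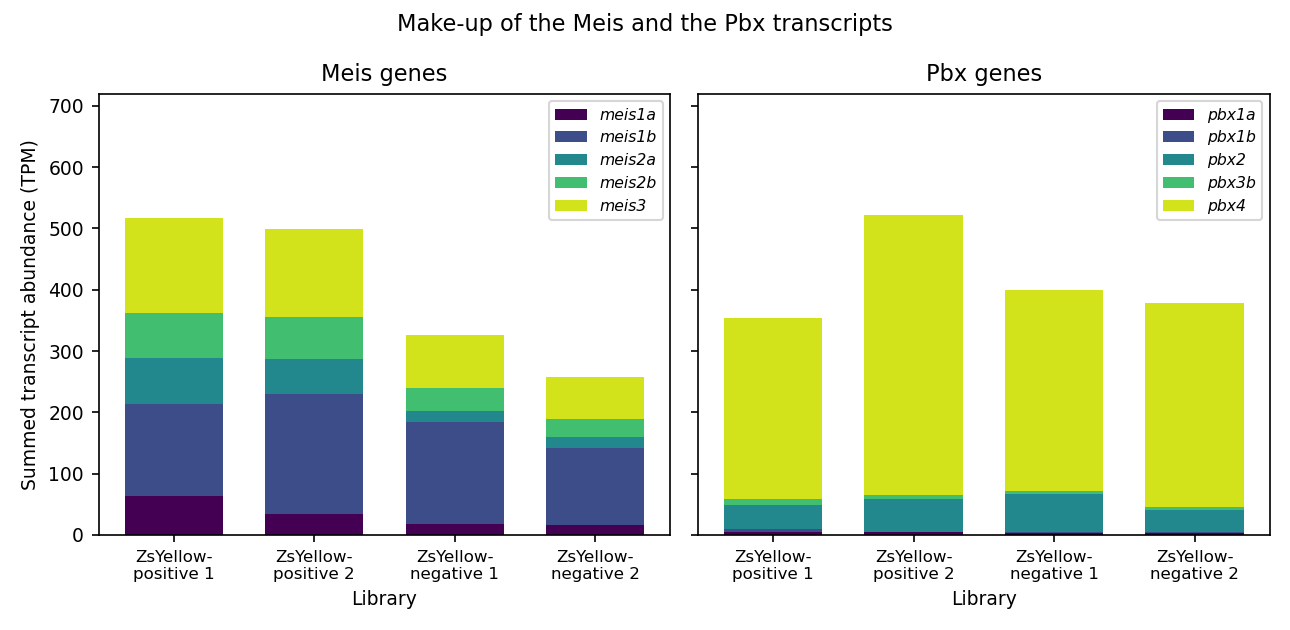
Summed transcript abundance (TPM) of the 5 Meis genes (left panel) and the 5 Pbx genes (right panel) in each library, with positive libraries left of negative ones and each gene as a segment. The Meis columns are taller in both positive libraries, and pbx4 makes up most of each Pbx column.

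Summed over the 5 genes, Meis transcripts reached 516.6 and 499.8 TPM in the positive libraries, against 325.9 and 257.8 TPM in the negative libraries. The mean was 508.2 ± 11.9 TPM in positive cells and 291.9 ± 48.2 TPM in negative cells (SD, n = 2 each). The means of the log2 sums differed by 0.81, a ratio of 1.75. The groups did not overlap, and the exact permutation test (two-sided) gave its smallest possible p of 0.333. Summed Pbx transcripts were 353.8 and 521.3 TPM in the positive libraries and 399.9 and 378.0 TPM in the negative libraries. The negative libraries again lay between the positive ones (exact permutation p 1.0).

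The difference between the families was examined as the ratio of summed Meis to summed Pbx TPM within each library. It was 1.46 and 0.959 in the positive libraries, against 0.815 and 0.682 in the negative libraries. The ratio was higher in both positive libraries, with a log2 difference of 0.67 (exact permutation p 0.333, the smallest possible). Leaving out positive replicate 1 made it 0.36, and leaving out positive replicate 2 made it 0.97. That the Meis genes differed between the fractions more than the Pbx genes did is therefore a description of these 4 libraries.

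Within the Meis sum, the share of meis1b was 29.1% and 39.1% in the positive libraries, against 50.7% and 48.8% in the negative libraries. The share of meis2a was 14.6% and 11.5% in positive against 5.44% and 7.04% in negative libraries. The share of meis3 differed less, at 29.9% and 28.7% in positive and 26.5% and 26.5% in negative libraries. Meis transcripts were thus divided more evenly among the 5 genes in positive cells. Within the Pbx sum, pbx4 held 83.2% and 87.5% in the positive libraries against 82.0% and 87.9% in the negative libraries, and the ranges overlapped.

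Other genes that act with Meis and Pbx, or in tissues where they act, were compared as lists. The TALE relatives and Pbx-binding proteins had 8 IDs, of which 7 were tested and 2 were called lower. The larger fall was that of pbxip1b, a relative of the human protein PBXIP1 that binds Pbx and hinders its contact with DNA. It had 11.0 and 10.4 CPM in the positive libraries against 37.9 and 43.2 CPM in the negative libraries, a log2 change of -1.92 (SE 0.188, edgeR adjusted p 0.00022). Its duplicate pbxip1a was not called (-0.29, edgeR adjusted p 0.381). PKNOX2, of the Prep family that also binds Pbx, was lower at -0.85 (SE 0.243, edgeR adjusted p 0.0423), with 12.8 and 8.42 CPM in positive against 18.6 and 19.7 CPM in negative libraries. This call was lost in 5 of 11 alternatives: both limma fits (adjusted p 0.0669 and 0.0544) and the fits without negative replicate 1 (0.152), negative replicate 2 (0.207) or positive replicate 2 (0.118). The more abundant PKNOX1 ID (ENSDARG00000018765) had a log2 fold change of -0.19 and the other (ENSDARG00000036542) 0.54, with edgeR adjusted p-values of 0.498 and 0.383. TGIF1, a repressor that modulates TGF-beta signalling, was not called, at 470.4 ± 2.03 CPM in positive cells against 488.3 ± 29.7 CPM in negative cells (SD over 2 libraries). The MKX ID that was tested had 10 and 11 counts in positive cells against 30 and 34 in negative cells (log2 fold change -1.61, edgeR adjusted p 0.0602), and the other had at most 3 counts in a library.

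**Figure D4:**
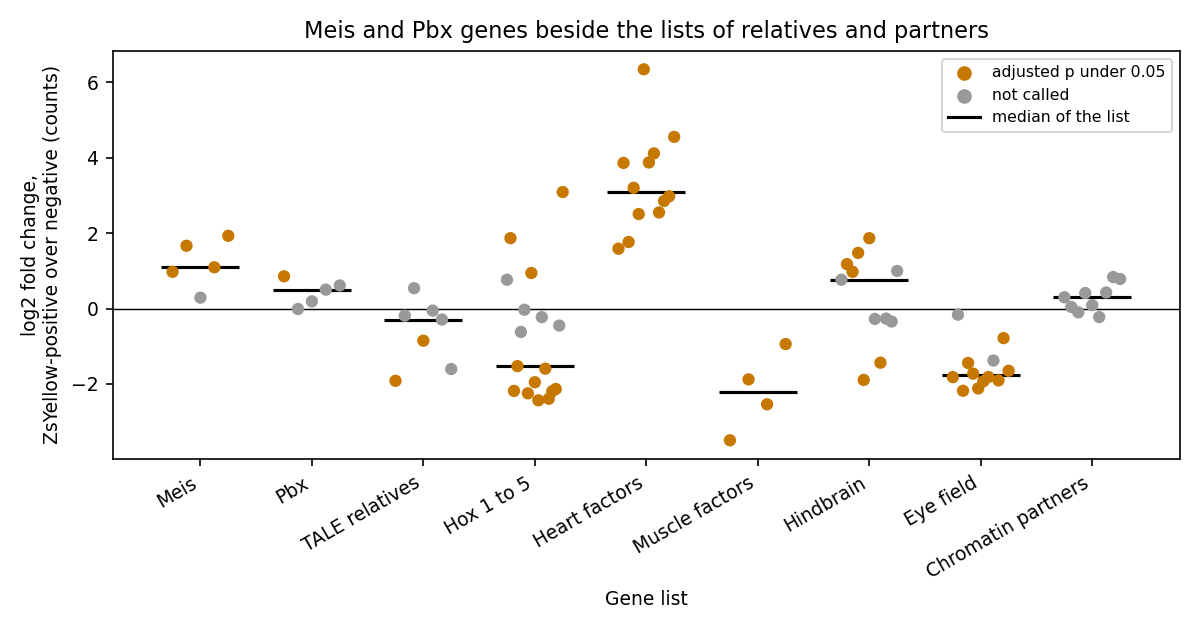
Log2 fold change, ZsYellow-positive over ZsYellow-negative, of each tested ID in the Meis, Pbx and partner lists, from the edgeR fit to counts; bars are list medians. The Meis median of 1.095 and the Pbx median of 0.50 lie between the heart factors (3.09) and the TALE relatives (-0.29).

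The list of Hox genes of paralogue groups 1 to 5, partners of Pbx and Meis on DNA, had 17 IDs, with 3 called higher, 9 lower and 5 in neither direction. Among those called were hoxb1a (log2 fold change 1.87), HOXD3 (-2.44) and hoxc3a (-2.40), with edgeR adjusted p-values of 0.000385, 0.000257 and 8.4e-05. Of the heart factors listed, only Hand2 is named above as acting with Pbx. The heart factors were called higher in 12 of 12 IDs. Their median log2 fold change was 3.09, well above that of the Meis list. NKX2-5 (6.35) and GATA6 (4.55) were the highest of them, and HAND2 (1.77) and ISL1 (1.59) the lowest. Since nkx2.5 drives the reporter, its own place there was set by the sort. The muscle factors MYOD1, MYF5, MYOG and MEF2D were called lower in 4 of 4, with log2 fold changes of -2.54, -3.50, -1.88 and -0.94. Of these, only Myod is named above as acting with Pbx in fast muscle. MYOD1 and MYF5 were also counted among the somite and presomitic markers. On TPM the log2 ratio of the MYOG group means was -2.69. The count per TPM of MYOG, relative to the median gene, was higher in positive cells by 0.754 on the log2 scale. Of genes with at least 100 counts in every library, 0.0429% had a larger difference in size.

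Meis genes are also known for their expression in the hindbrain and the eye. Of 11 hindbrain IDs, meis3 among them, 4 were called higher and 2 lower. The highest were hoxb1a (1.87) and the FGF8 ID ENSDARG00000003399 (1.48). Without meis3, the summed level of the other 10 IDs was 389.3 and 373.4 CPM in the positive libraries, against 249.7 and 267.9 CPM in the negative libraries. EGR2, a defining gene of hindbrain segments, was present in all libraries and was not called (-0.35, edgeR adjusted p 0.409). The eye field list had 10 of 12 IDs called lower, from CCND1 (-0.79) and the MYC ID ENSDARG00000045695 (-1.44) to rx3 (-2.12) and rx2 (-2.18), and summed to 774.0 and 701.6 CPM in positive against 1296 and 1385 CPM in negative libraries. The neural markers summed to 387.5 and 349.0 CPM in positive against 874.4 and 850.0 CPM in negative libraries. The part of these cell types in the Meis values was not tested.

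Of 4 endothelial markers, 3 were called higher and etsrp was not (-0.09, edgeR adjusted p 0.773), with sums of 1019 and 1379 CPM in positive against 623.0 and 564.6 CPM in negative libraries. No marker ID of these lists was at 0 in every library. Their part in the Meis values was not tested. Chromatin proteins that work with Meis, Pbx and Hox, among them histone deacetylases and CREBBP, gave 0 calls in 9 by edgeR. At an unadjusted p under 0.05 there were 3 higher, and DESeq2 called 1 higher and limma on log2(TPM + 1) 0. The edgeR fit with no low-count filter called 1 higher, and that without positive replicate 2 called 3.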

How the data were processed

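Per the labels' protocols, roughly 50 ng of RNA went into each library, made with a low-input kit of Clontech by priming on poly(A) and tagmentation, and each end was read for 50 nt. Salmon 1.2.1 and the builds Zv9 and GRCz11 are among the names in the submitters' processing notes, but the step each belongs to is not given in the sources used here, nor is the use of strand. The authors deposited 2 columns per library: an estimated count already made whole, and log2(TPM + 1). No further rounding was needed. TPM was recovered from the latter and summed to 1000000 per library. Molecular identifiers are not mentioned, so counts are not necessarily independent molecules. Columns were matched to samples by the library number in the sample descriptions. Names came from a table of Ensembl IDs and symbols, which named 23599 of 25873 IDs, with synonyms from a RefSeq table of GRCz12tu. No coordinates or sequences are given.

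Counts of all IDs were fitted with edgeR 4.0.16 in R 4.3.3 (quasi-likelihood F test, TMM factors of 0.974 to 1.053, filterByExpr with a minimum count of 10 and total of 15), and p-values were adjusted by Benjamini-Hochberg over the 19084 genes tested. SEs were obtained from the log2 fold change and the F statistic. CPM used TMM-scaled library sizes. Log2 ratios between replicates were taken on CPM, with a prior count of 2 added before the logarithm. The script was tested on simulated data. Exact permutation tests used scipy 1.17.1. Alternatives were other factors in edgeR (upper-quartile, or the size factors of DESeq2), no low-count filter, the DESeq2 1.42.0 Wald test, limma 3.58.1 with a trend on log2(TPM + 1) and log2(TPM + 0.1), a replicate block, an adjusted p under 0.01, CPM in place of TPM for sums, and leaving out each library.

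The members and lists were chosen with earlier results of these data known. Named were all members, all TALE relatives, and from each partner list the 2 called genes of highest and the 2 of lowest log2 fold change; a few genes that this rule names are not reported here, and EGR2 was added after its values were seen. Counts in lists are of IDs, since several IDs can share a name. Some IDs are in more than one list, so the counts of different lists are not separate. The PAX6 IDs are in the eye field and neural lists, and hoxb1a and HOXB2 in the Hox and hindbrain lists. NKX2-5 and HAND2 are in the heart factor and cardiac lists, and MYOD1 and MYF5 in the muscle and somite lists. Of the remaining marker lists, described by calls higher and lower, neural crest had 0 and 3 of 4, blood 0 and 3 of 4, pronephros 0 and 5 of 5, endoderm 1 and 1 of 4, epidermis 1 and 1 of 3, and notochord 0 and 4 of 4 by edgeR. At an unadjusted p under 0.05, 0 genes of those lists with no higher call were higher, and DESeq2 and limma also called 0 higher.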

Additional observations from a re-analysis of the deposited data

How the results depend on the processing

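The number of Meis and Pbx genes called higher was 5 in the full fit and ran from 2 to 6 over the fits that leave out 1 library. It was 3 without negative replicate 1, 2 without negative replicate 2 and 6 without positive replicate 2. A group left with 1 library is assumed there to vary like the other pair. The genes meis2a and meis2b were called under each of 11 alternatives, meis3 under 10, meis1a under 9 and pbx3b under 5; meis1b, pbx1a, pbx2 and pbx4 were called under none. The log2 fold change of pbx2 changed sign with DESeq2 size factors (0.00392), no low-count filter (0.00729), the DESeq2 Wald test (0.00502) and the replicate block (0.00868), and ran from -0.265 to 0.309 over the fits without 1 library. That of pbx1b ran from -0.444 without positive replicate 1 to 1.24 without positive replicate 2, and that of pbx4 from -0.0824 without positive replicate 2 to 0.452 without positive replicate 1. The summed Pbx log2 difference of 0.143 ran from -0.136 without positive replicate 2 to 0.423 without positive replicate 1. The cause of these changes was not tested. Upper-quartile factors shifted the median over all genes tested to -0.109 on the log2 scale, against -0.00866. With the replicate number as a block, 3323 genes were called against 3262 without it, and the number of members called higher was 5 in both. The deviations of same-numbered libraries correlated at -0.092, and the labels do not say that a number marks a shared sort. Replication, and not counting depth, limits the more abundant members; pbx1b, at 67 to 190 counts, is the shallowest.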
